A study of Mus musculus with 2 samples.

Results

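The 10 genes described here are chemokines and cytokines that NF-kB switches on, with regulators that act back on NF-kB. They are the chemokines Cxcl1, Cxcl2 and Cxcl5, the cytokines Il6, Il1b, Tnf and Lif, and the feedback regulators Nfkbia, Nfkbiz and Tnfaip3. They were chosen by gene symbol, and all 10 were found among the 32285 genes of the tables. Their transcripts were followed in single cells of the mouse uterus. One group, DOX plus AMH, was given the DNA-damaging chemotherapy drug doxorubicin (3 mg/kg) together with anti-Müllerian hormone, a TGF-beta relative made by the gonads (0.75 mg/kg). The other group, DOX, received the same dose of doxorubicin alone. Uteri were taken 4 h after treatment and pooled over 5 animals per group, so each group is 1 library. No library of animals without doxorubicin was analysed here. The labels do not give the strain of the mice. The series text names prepubertal mice of postnatal day 25 and 2 weekly doses, but for bulk sequencing, and whether these animals followed the same schedule is not stated.

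The DOX plus AMH library held 8083 barcodes and the DOX library 9258, of which 6738 and 7431 cells were kept, with median depths of 10100.5 and 13765 UMIs. A UMI stands for 1 captured RNA molecule. A level is given in CPM, the UMIs of a gene scaled to 1000000 UMIs over the cells of a class. Cells were sorted into classes by clustering without the 10 genes and without their pathway genes, and a class is called "-like" because its name rests on marker genes. The class's own marker list summed to 1217 CPM or more in every compared class, but in 3 classes another list summed higher. These were stromal markers in mesothelial-like cells, smooth muscle and stromal markers in pericyte-like cells (15905 and 17826 CPM, and 4386 and 6077 CPM, against 4106 and 3015 CPM of pericyte markers) and macrophage or monocyte markers in dendritic-like cells (1595 and 2555 CPM, against 1383 and 1217 CPM of dendritic markers). Log2 ratios have DOX plus AMH on top and DOX below, with the exact 95% interval in brackets. Since a group is 1 library, nothing was replicated and no test was possible, and intervals reflect counting error only and leave out how cells or pools vary. Lower RNA per cell and fewer cells making it cannot be told apart in these sums, so the number of cells behind a sum is given where it matters. The libraries shared 17 barcodes, 13 of them among kept cells.

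Cxcl1, Cxcl2 and Cxcl5 are secreted chemokines that draw neutrophils through the receptor Cxcr2. Il6, Il1b and Tnf are inflammatory cytokines, and Lif, of the same family as Il6, is needed in the mouse uterus for embryo implantation. NF-kB is held in the cytoplasm by inhibitors such as IkB-alpha, the product of Nfkbia. When a cell senses injury or microbes, the inhibitor is degraded, NF-kB enters the nucleus and switches on these genes. It also switches on its own brakes, since new IkB-alpha returns it to the cytoplasm and A20, the product of Tnfaip3, shuts down upstream signalling. Nfkbiz encodes IkB-zeta, a nuclear partner that helps NF-kB to activate genes such as Il6.

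The stretch just before the start site is shown for the 4 genes whose promoter held an exact copy of a strict NF-kB motif, to show where it lies. The motif, GGGA, then any base, then TTTCC, searched on both strands, was found in 104 of 27025 mouse promoter windows, or 0.385%. Each window, those of the members included, runs 250 bases before to 50 bases after the start site. It was present in 4 of the 8 members with a promoter in the RefSeq table (build GRCm38.p6). The looser form, GGG, then any 5 bases, then CC, which includes every strict match, was present in 7 of the 8 but also in 50.4% of all promoters. Capitals mark the strict match. Each line is the part of its window that holds the match and is 120 bases long. It runs 5′ to 3′ on the strand of the gene and ends at the base before the RefSeq start site.
Cxcl1, chr5:90891125-90891244, plus strand: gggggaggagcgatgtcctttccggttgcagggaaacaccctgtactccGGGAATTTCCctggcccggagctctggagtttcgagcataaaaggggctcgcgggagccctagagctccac
Cxcl2, chr5:90903779-90903898, plus strand: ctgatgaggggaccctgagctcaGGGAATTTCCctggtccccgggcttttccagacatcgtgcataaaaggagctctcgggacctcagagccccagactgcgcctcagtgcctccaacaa
Il6, chr5:30012994-30013113, plus strand: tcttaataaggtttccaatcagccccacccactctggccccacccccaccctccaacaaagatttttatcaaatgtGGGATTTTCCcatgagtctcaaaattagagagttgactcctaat
Nfkbia, chr12:55492648-55492767, minus strand: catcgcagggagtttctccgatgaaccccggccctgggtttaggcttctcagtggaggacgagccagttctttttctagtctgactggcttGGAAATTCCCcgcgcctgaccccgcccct
In Cxcl1, Cxcl2 and Il6 the match reads along the gene's strand, and in Nfkbia it reads on the opposite strand. Cxcl5 (90759360 to 90761624), Cxcl1 (90891241 to 90893115) and Cxcl2 (90903871 to 90905938) lie on the plus strand of chromosome 5, and Cxcl1 and Cxcl2 carry the same 10 letters. By these positions, from GENCODE, Cxcl1 and Cxcl2 begin before their RefSeq start sites, so the last bases of their stretches lie inside the genes. The windows of Il1b, Tnf, Lif and Tnfaip3 held no strict match, which says nothing of other letters or of sites elsewhere.

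Among the 10 compared classes Cxcl1 and Cxcl5 were highest in mesothelial-like cells, the covering of the uterus, in both libraries. The heat map of levels shows all 10 genes in each class. Mesothelial markers summed to 2571 and 3483 CPM in this class. Stromal markers summed to more, 10539 and 13533 CPM, and epithelial and smooth muscle markers to 749 and 953 and to 273 and 1262 CPM. Cxcl1 was counted at 208 CPM (193 to 224) in mesothelial-like cells of DOX plus AMH and at 51.3 CPM (42.5 to 61.4) in those of DOX. The log2 ratio was 2.02 (1.74 to 2.31), and the UMIs were in 53 of 136 and 21 of 90 cells. Pericyte-like cells, which wrap small vessels, came next at 45.8 and 41.0 CPM, a log2 ratio of 0.16 (-0.23 to 0.56), which was -0.20 without the highest cell of DOX plus AMH and of DOX. In DOX the intervals of mesothelial-like and pericyte-like cells overlapped, and in DOX plus AMH they did not. Stromal-like cells had 17.9 and 18.9 CPM of Cxcl1, a log2 ratio of -0.08 (-0.21 to 0.05). Those levels average over stromal-like clusters, and a single cluster, described below, was above mesothelial-like cells in both libraries. Smooth muscle-like cells had 16 and 10 UMIs of it (0.52, -0.71 to 1.82), lymphatic endothelial-like cells 4 and 18 UMIs (-0.97, -2.99 to 0.63) and macrophage or monocyte-like cells 12 and 24 UMIs (-1.01, -2.14 to 0.05). No UMI of Cxcl1 was counted in the 82 and 77 lymphocyte-like cells.

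**Figure D1:**
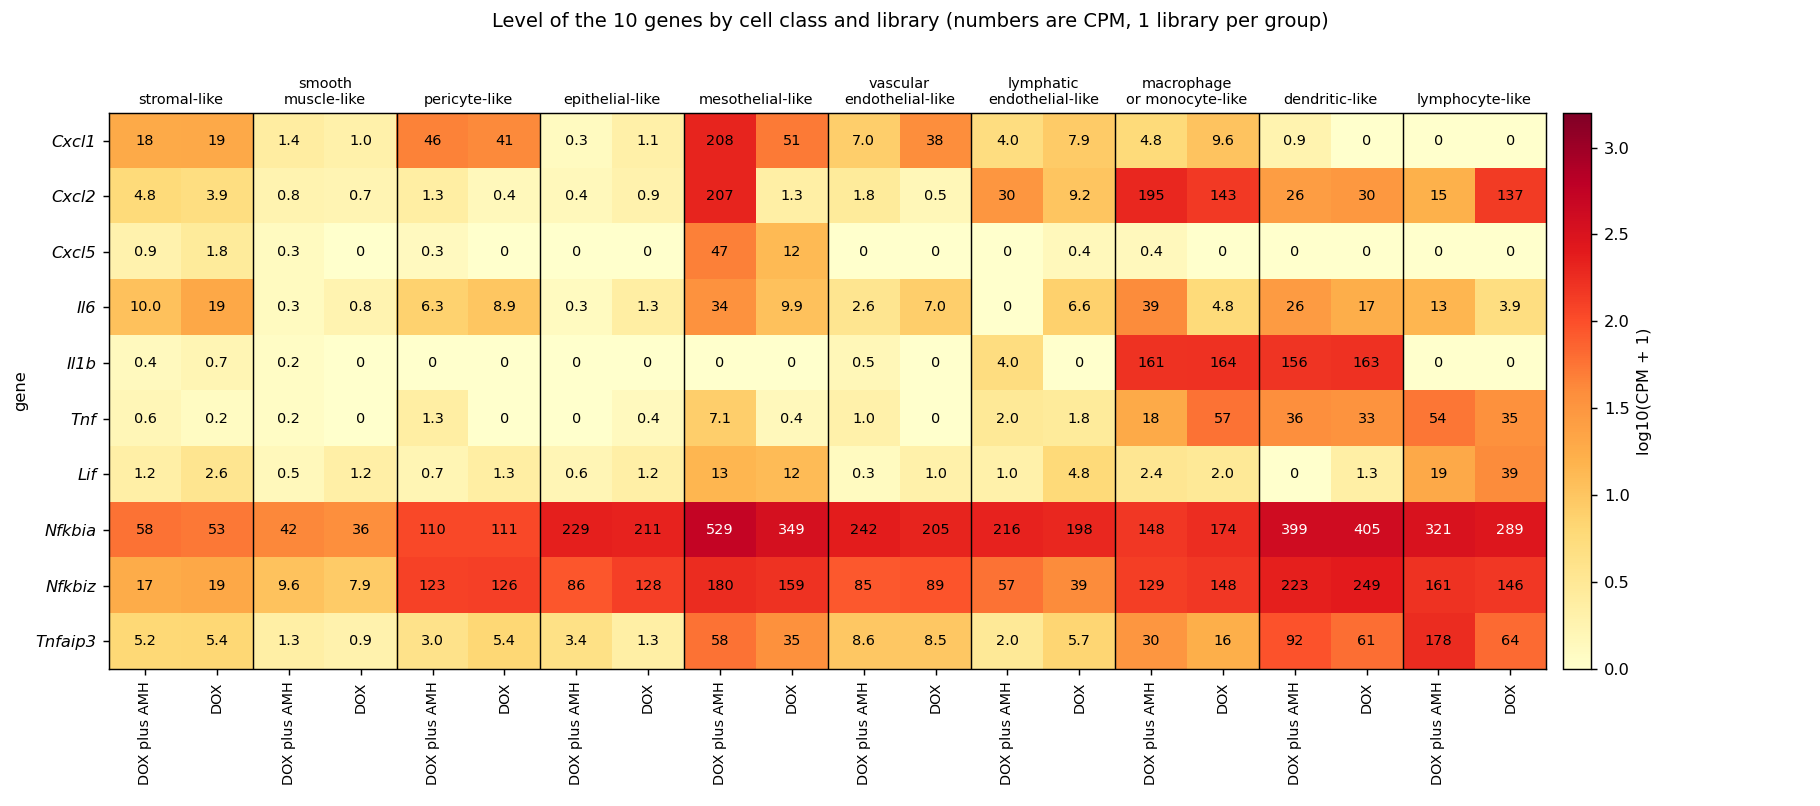
Level of each gene (rows) in the 10 compared cell classes, with the DOX plus AMH library left of the DOX library in each pair. Colour is log10(CPM + 1) and the printed numbers are CPM from 1 library each, so the 208 CPM of Cxcl1 in mesothelial-like cells of DOX plus AMH stands beside 51 in DOX.

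Cxcl2 differed most between the libraries in mesothelial-like cells. There it had 699 UMIs, or 207 CPM (192 to 223), in DOX plus AMH and 3 UMIs, or 1.29 CPM (0.267 to 3.78), in DOX. The log2 ratio was 7.32 (5.77 to 9.61). In DOX plus AMH 32 cells carried the gene, and the highest of them held 275 UMIs, 39.3% of the total. Without the highest cell of DOX plus AMH and of DOX the log2 ratio was 7.20. After thinning each cell to 2000 UMIs, Cxcl2 was seen in 16 of 135 cells of DOX plus AMH, 11.9% (6.93 to 18.5). It was seen in 0 of 89 cells of DOX, where a floor of 3 cells would be a share of 3.37%, which is not the limit of an exact interval. Unthinned, the shares were 23.5% and 3.33%. For comparison, epithelial-like cells had Cxcl2 in 1 of 120 thinned cells in DOX plus AMH and 0 of 273 in DOX. How much free RNA adds to the shares of either class was not measured. Epithelial-like cells had median depths of 34524 and 30655.5 UMIs, and mesothelial-like cells 18685.5 and 17982.5 UMIs.

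Cxcl2 was about as high in macrophage or monocyte-like cells, at 195 CPM (178 to 213) in DOX plus AMH and 143 CPM (128 to 158) in DOX. Here both libraries had many UMIs, 491 and 358 over 43 and 36 cells, and the log2 ratio was 0.45 (0.25 to 0.65). The interval in DOX plus AMH overlapped that of mesothelial-like cells. Lymphocyte-like cells had 8 and 70 UMIs, a log2 ratio of -3.18 (-4.45 to -2.13), but these lay in 4 of 82 and 5 of 77 cells. In DOX the highest cells held 29 and 23 of the 70 UMIs. Lymphatic endothelial-like cells had 30 UMIs in 3 cells and 21 UMIs in 5 cells, a log2 ratio of 1.71 (0.86 to 2.59). It was 0.85 without the highest cell of DOX plus AMH, which held 20 UMIs, and of DOX. Stromal-like cells were at 4.76 and 3.90 CPM (log2 ratio 0.29, 0.02 to 0.55). Dendritic-like cells had 29 UMIs in 5 cells and 46 UMIs in 3 cells (-0.21, -0.94 to 0.49).

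Cxcl5 was counted in fewer classes. Mesothelial-like cells had 46.9 CPM (39.9 to 54.8) in DOX plus AMH and 12.1 CPM (8.03 to 17.5) in DOX, a log2 ratio of 1.96 (1.37 to 2.59) from 22 and 6 cells. Stromal-like cells went the other way, at 0.893 and 1.81 CPM, a log2 ratio of -1.02 (-1.59 to -0.48). A single DOX cell held 54 of the 138 stromal UMIs there, and without the highest cell of DOX plus AMH and of DOX the ratio was -0.48. The other 8 compared classes had 0 to 3 UMIs of Cxcl5 in each library.

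**Figure D2:**
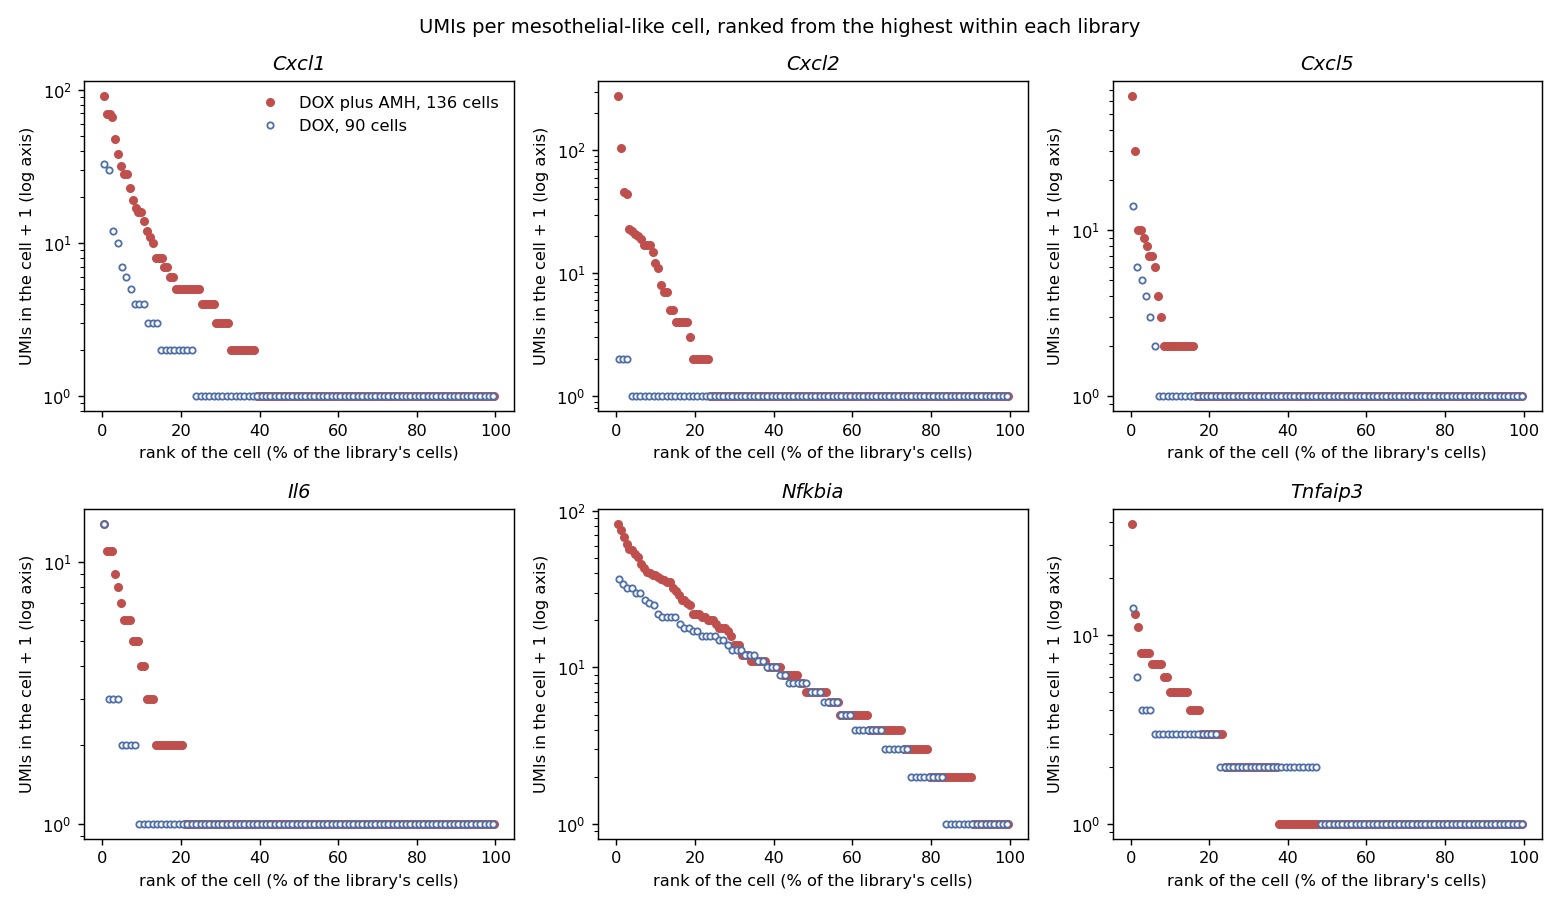
UMIs of 6 genes in single mesothelial-like cells, ranked from the highest within each library (horizontal axis in % of the library's cells, vertical axis UMIs + 1 on a log axis). Filled points are the 136 cells of DOX plus AMH and open points the 90 cells of DOX, and Cxcl2 reaches 275 UMIs in a cell of DOX plus AMH but no more than 1 in a cell of DOX.

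Il6 went in opposite directions in different classes. In stromal-like cells it was lower in DOX plus AMH, at 9.97 CPM (9.02 to 10.99), than in DOX, at 19.1 CPM (18.1 to 20.1), a log2 ratio of -0.94 (-1.10 to -0.78) from 402 and 1453 UMIs. In macrophage or monocyte-like cells it was higher, at 38.9 CPM (31.6 to 47.5) in DOX plus AMH and 4.79 CPM (2.47 to 8.36) in DOX, a log2 ratio of 3.02 (2.16 to 4.03). That rests on 98 UMIs in 16 of 219 cells and 12 UMIs in 10 of 274 cells. The highest cell of DOX plus AMH held 39 of the 98 UMIs, and without it and the highest cell of DOX the log2 ratio was 2.72. Thinned to 2000 UMIs, 6 of 188 and 2 of 243 of these cells had a UMI of Il6, and the intervals of the shares, 1.18 to 6.82% and 0.0998 to 2.94%, overlapped. Mesothelial-like cells had 33.5 CPM (27.6 to 40.3) of Il6 in DOX plus AMH and 9.92 CPM (6.29 to 14.9) in DOX, a log2 ratio of 1.76 (1.10 to 2.47). A single DOX cell held 13 of the 23 UMIs there, and the log2 ratio was 2.80 without the highest cell of DOX plus AMH and of DOX. Dendritic-like cells had 30 and 26 UMIs (log2 ratio 0.66, -0.15 to 1.48), with 14 of the 26 in 1 cell. Pericyte-like cells had 19 and 20 UMIs (-0.50, -1.49 to 0.48), and vascular endothelial-like cells 10 and 14 UMIs (-1.44, -2.77 to -0.16). Without the highest cell of DOX plus AMH and of DOX the log2 ratios were -1.25 (-2.61 to 0.01) and -0.49 (-2.36 to 1.51). Epithelial-like cells had 2 and 18 UMIs of Il6 (-2.19, -5.34 to -0.13).

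The stromal difference in Il6 followed 1 cluster. Cluster 12, whose leading genes were Bmper, Apod, Sntg1, Ly6a, Has1, Tnfaip6, Vcam1 and Mmp3 beside Il6 and Cxcl1 themselves, held 349 of the 402 stromal UMIs of Il6 in DOX plus AMH and 1402 of the 1453 in DOX. It also held 665 of 720 and 1356 of 1438 stromal UMIs of Cxcl1. The cluster made up 4.46% (3.82 to 5.18) of stromal-like cells in DOX plus AMH and 9.32% (8.52 to 10.2) in DOX. Within it Il6 was at 129 CPM (116 to 143) in DOX plus AMH and 169 CPM (161 to 178) in DOX, a log2 ratio of -0.39 (-0.57 to -0.22). Cxcl1 in the same cluster was higher in DOX plus AMH, at 246 CPM (227 to 265) against 164 CPM (155 to 173) in DOX, a log2 ratio of 0.59 (0.45 to 0.72). In both libraries that level was above the one of mesothelial-like cells. Cxcl2 was likewise higher there, at 63.6 and 33.9 CPM, a log2 ratio of 0.91 (0.62 to 1.18). Both genes rest on few cells. Over all stromal-like cells the 192 and 297 UMIs of Cxcl2 lay in 30 and 38 cells, the highest with 46 and 63 UMIs. The 720 and 1438 UMIs of Cxcl1 lay in 94 and 186 cells, the highest with 115 and 97 UMIs. Over the other stromal-like clusters together Il6 was at 1.41 CPM in DOX plus AMH and 0.753 CPM in DOX, a log2 ratio of 0.91 (0.32 to 1.49), opposite to that of all stromal-like cells. That rests on 53 and 51 UMIs, of which 45 and 8 were in cluster 11, led by Grm7 and Col14a1.

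**Figure D3:**
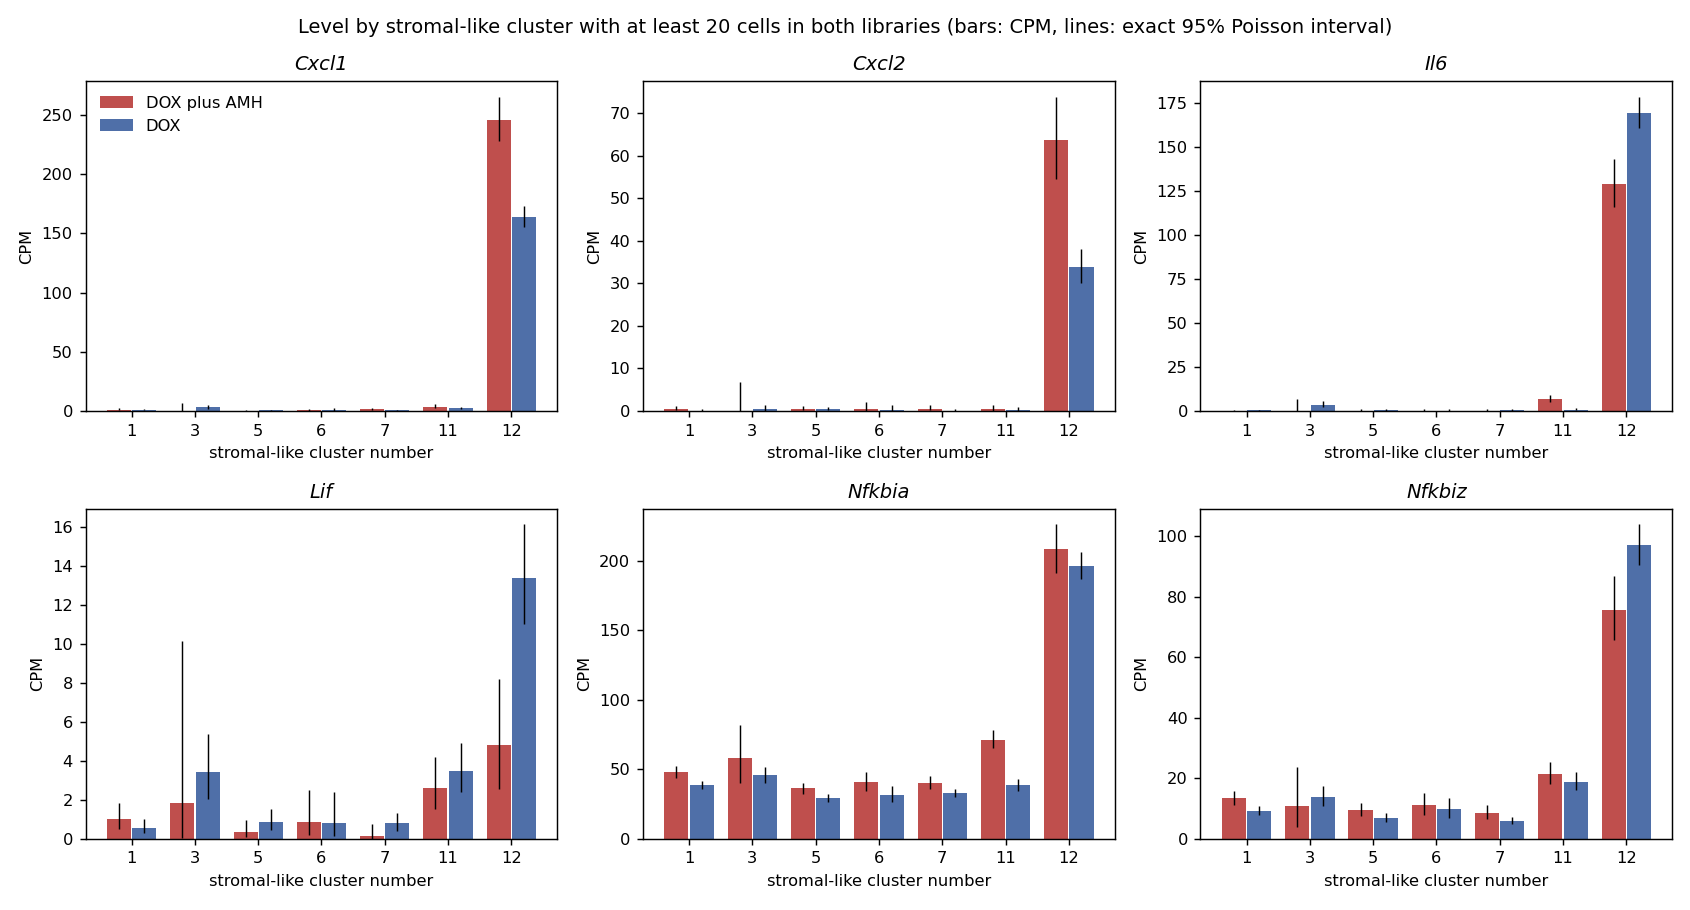
Level of 6 genes in each stromal-like cluster with at least 20 cells in both libraries, with DOX plus AMH left of DOX. Bars are CPM of 1 library and lines exact 95% Poisson intervals, and cluster 12 stands above the others for Cxcl1, Cxcl2, Il6, Nfkbia and Nfkbiz in both libraries.

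In stromal-like cells Lif was lower in DOX plus AMH, at 1.22 CPM (0.899 to 1.61), than in DOX, at 2.63 CPM (2.28 to 3.02), a log2 ratio of -1.11 (-1.59 to -0.66). Its 49 and 200 UMIs were spread over 48 and 156 cells, so no cell decided the ratio. Cluster 12 held 13 and 111 of them, at 4.80 and 13.4 CPM, and without that cluster the log2 ratio was -0.46 (-1.06 to 0.12). Mesothelial-like cells had 13.4 and 11.6 CPM of Lif (0.20, -0.52 to 0.94). Lymphocyte-like cells had 18.8 and 39.0 CPM from 10 and 20 UMIs (-1.06, -2.31 to 0.11). Epithelial-like cells, whose glands are the known source of Lif at implantation in adult mice, had 4 and 16 UMIs, or 0.587 and 1.19 CPM (-1.02, -3.06 to 0.61).

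Il1b was counted in myeloid cells and almost nowhere else. Macrophage or monocyte-like cells had 161 CPM (146 to 177) in DOX plus AMH and 164 CPM (148 to 181) in DOX, and dendritic-like cells 156 and 163 CPM, with overlapping intervals. The log2 ratios were -0.03 (-0.23 to 0.18) and -0.06 (-0.35 to 0.22). Without the highest cell of DOX plus AMH and of DOX they were -0.26 (-0.49 to -0.04) and -0.28 (-0.60 to 0.04). In DOX plus AMH 1 macrophage or monocyte-like cell held 92 of the 405 UMIs of that class. No UMI of Il1b was counted in pericyte-like, epithelial-like, mesothelial-like or lymphocyte-like cells of either library. Stromal-like cells had 15 and 50 UMIs of it (-0.82, -1.76 to 0.04). In DOX 16 and 15 of the 50 lay in 2 cells, and without the highest cell of DOX plus AMH and of DOX the ratio was -0.47 (-1.52 to 0.49). Over all kept cells Il1b had 9.74 and 6.75 CPM (0.53, 0.39 to 0.67), and 0.15 (-0.01 to 0.31) without the neutrophil-like cluster of 12 and 2 cells, which held 257 and 67 of the 867 and 788 UMIs.

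Tnf was lower in macrophage or monocyte-like cells of DOX plus AMH, at 18.3 CPM (13.4 to 24.4), than of DOX, at 57.4 CPM (48.4 to 67.6), a log2 ratio of -1.65 (-2.16 to -1.16). Its 46 and 144 UMIs came from 37 of 219 and 61 of 274 cells, and no cell held more than 5 or 10 of them. Within this class Tnf was thus lower and Il6 higher in DOX plus AMH. Il1b hardly differed over all cells, and its log2 ratio was -0.26 (-0.49 to -0.04) without the highest cell of DOX plus AMH and of DOX. Dendritic-like cells had 36.2 and 32.9 CPM of Tnf (0.14, -0.49 to 0.76), or -0.52 without the highest cell of DOX plus AMH and of DOX, and lymphocyte-like cells 54.4 and 35.1 CPM (0.63, -0.26 to 1.57). In DOX plus AMH macrophage or monocyte-like cells were below both these classes with no overlap of intervals, but 17 of the 41 dendritic-like UMIs lay in 1 cell. Without the highest cell of each class dendritic-like cells had 21.6 CPM and macrophage or monocyte-like cells 16.4 CPM in DOX plus AMH. In DOX they were above dendritic-like cells, and their interval overlapped that of lymphocyte-like cells. Mesothelial-like cells had 24 UMIs in 12 cells of DOX plus AMH and 1 UMI in DOX (4.04, 1.43 to 9.41). Stromal-like cells had 23 and 19 UMIs (1.19, 0.25 to 2.15).

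**Figure D4:**
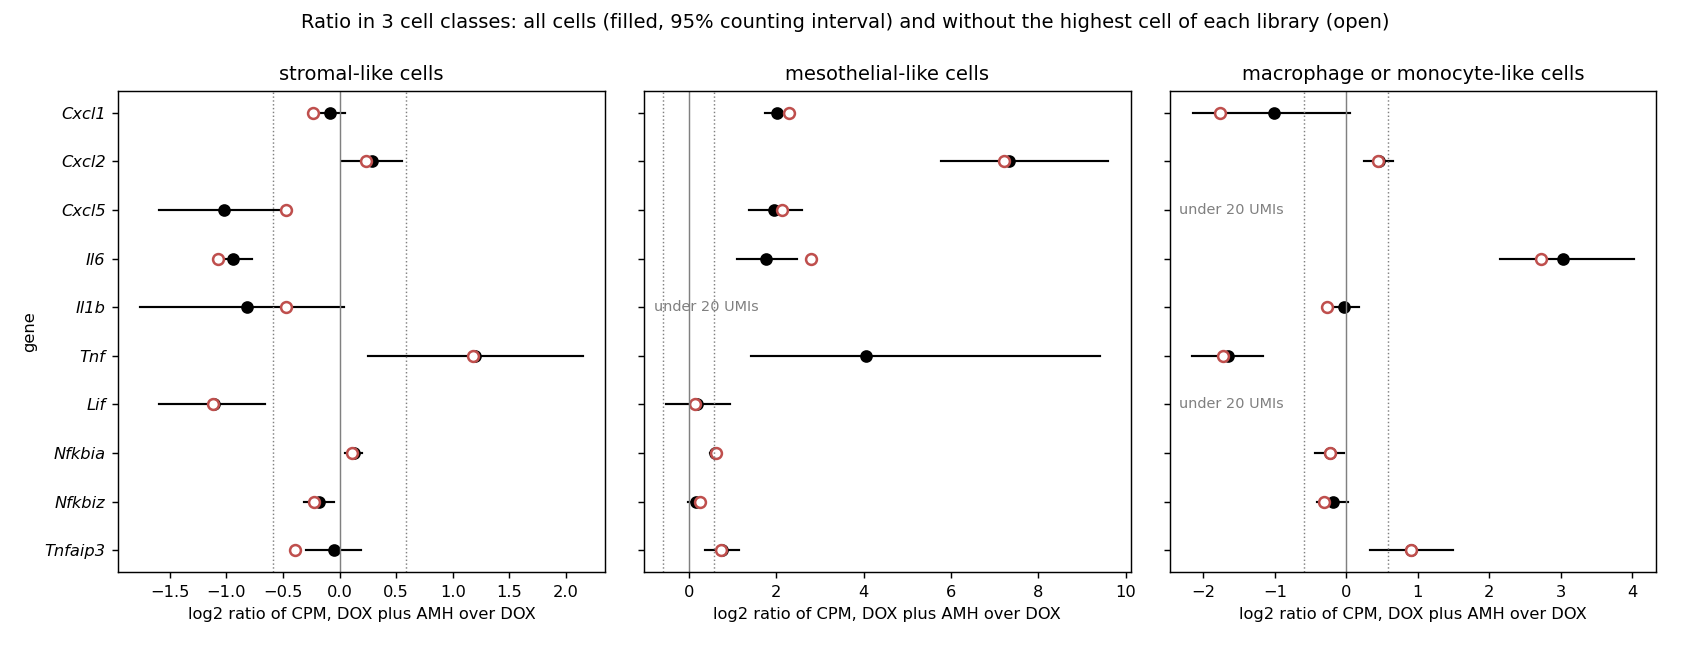
Log2 ratio of each gene, DOX plus AMH over DOX, in 3 cell classes. Filled points are all cells with their 95% counting interval, open points leave out the highest cell of each library, the dotted lines mark 1.5-fold and each panel has its own scale, and Il6 lies left of 0 in stromal-like cells at -0.94 and right of 0 in the others at 1.76 and 3.02.

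Nfkbia and Nfkbiz were counted in every class, and neither reached 1.5-fold except Nfkbia in mesothelial-like cells. Nfkbia in mesothelial-like cells was at 529 CPM (504 to 554) in DOX plus AMH and 349 CPM (325 to 373) in DOX, a log2 ratio of 0.60 (0.48 to 0.72). Dendritic-like cells had 399 and 405 CPM, so mesothelial-like cells were highest in DOX plus AMH and dendritic-like cells in DOX. Of the compared classes smooth muscle-like cells had the least, 41.9 and 36.2 CPM. In stromal-like cells Nfkbia was at 58.0 and 53.2 CPM (0.13, 0.05 to 0.20), and at 47.2 and 35.7 CPM outside cluster 12 (0.40, 0.31 to 0.49). Pericyte-like cells had 110 and 111 CPM, epithelial-like 229 and 211 CPM, vascular endothelial-like 242 and 205 CPM, lymphatic endothelial-like 216 and 198 CPM, macrophage or monocyte-like 148 and 174 CPM, and lymphocyte-like cells 321 and 289 CPM. Over the 10 compared classes its log2 ratio ran between -0.23 in macrophage or monocyte-like cells and 0.60 in mesothelial-like cells.

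Nfkbiz was high in dendritic-like (223 and 249 CPM), mesothelial-like (180 and 159 CPM) and lymphocyte-like cells (161 and 146 CPM). Pericyte-like cells had 123 and 126 CPM of it, against 16.9 and 19.2 CPM in stromal-like and 9.60 and 7.90 CPM in smooth muscle-like cells. The log2 ratio was -0.04 (-0.26 to 0.19) in pericyte-like cells and -0.18 (-0.32 to -0.05) in stromal-like cells, where it was 0.39 (0.21 to 0.56) without cluster 12. Epithelial-like cells had 86.5 CPM (79.6 to 93.8) in DOX plus AMH and 128 CPM (122 to 134) in DOX, a log2 ratio of -0.56 (-0.70 to -0.42) that did not reach 1.5-fold. Lymphatic endothelial-like cells had 57.3 and 39.0 CPM (0.56, 0.05 to 1.05), vascular endothelial-like cells 85.3 and 88.7 CPM (-0.06, -0.32 to 0.22) and macrophage or monocyte-like cells 129 and 148 CPM (-0.19, -0.41 to 0.03).

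Tnfaip3 was higher in several immune classes of DOX plus AMH. Lymphocyte-like cells had 178 CPM (144 to 218) in DOX plus AMH and 64.4 CPM (44.3 to 90.4) in DOX, a log2 ratio of 1.47 (0.89 to 2.09) from 40 of 82 and 21 of 77 cells. Macrophage or monocyte-like cells had 29.8 and 15.96 CPM (0.90, 0.33 to 1.49) and dendritic-like cells 91.8 and 60.6 CPM (0.60, 0.18 to 1.02). Mesothelial-like cells had 58.5 and 34.5 CPM (0.76, 0.38 to 1.15). In each of these classes the ratio without the highest cell of DOX plus AMH and of DOX lay within the interval. Stromal-like cells had 5.18 and 5.37 CPM (-0.05, -0.30 to 0.19), and 53 of the 209 UMIs of DOX plus AMH were in 1 cell, without which and the highest DOX cell the ratio was -0.39. Epithelial-like cells had 23 and 17 UMIs (1.42, 0.45 to 2.41), vascular endothelial-like cells 33 and 17 UMIs (0.01, -0.88 to 0.94), smooth muscle-like cells 14 and 9 UMIs (0.48, -0.83 to 1.87) and pericyte-like cells 9 and 12 UMIs (-0.84, -2.27 to 0.53).

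Counted at 1.5-fold among members with at least 50 UMIs over both libraries, 6 of 8 members were higher and 0 lower in mesothelial-like cells of DOX plus AMH. They were Cxcl1, Cxcl2, Cxcl5, Il6, Nfkbia and Tnfaip3. Over all 9866 genes counted there 8.90% were higher and 16.0% lower, and the median log2 ratio was 1.26 over the members and -0.16 over all genes. In stromal-like cells 4 of 9 members were lower (Cxcl5, Il6, Il1b and Lif) and 0 higher, beside 4.79% lower and 11.3% higher of 16112 genes, with medians of -0.18 and 0.15. Without the highest cell of DOX plus AMH and of DOX, Cxcl5 (-0.48) and Il1b (-0.47) were no longer past 1.5-fold, and Il6 (-1.08) and Lif (-1.12) were. Without cluster 12, Il6 (0.91) and Cxcl5 (0.75) went the other way and Lif (-0.46) was under 1.5-fold. Il1b (-0.78) then had under 50 UMIs. In macrophage or monocyte-like cells 1 of 7 was lower (Tnf) and 2 higher (Il6 and Tnfaip3), beside 8.38% and 13.6% of 8354 genes. Dendritic-like cells had 2 of 7 higher (Il6 and Tnfaip3, all genes 10.8%), lymphocyte-like cells 1 of 4 lower (Cxcl2, 11.6%) and 1 higher (Tnfaip3, 9.49%), and lymphatic endothelial-like cells 1 of 3 higher (Cxcl2, 8.01%). In the other direction the shares of all genes were 9.14% lower in dendritic-like and 9.37% lower in lymphatic endothelial-like cells, with 0 members. Vascular endothelial-like cells had 1 of 4 lower, Cxcl1, beside 5.53% of all genes, and 0 higher, beside 7.13%. That value, 27 and 75 UMIs with a log2 ratio of -2.42 (-3.12 to -1.77), rests on 1 DOX cell with 71 UMIs, and it was 1.49 without the highest cell of DOX plus AMH and of DOX. Smooth muscle-like, pericyte-like and epithelial-like cells had none past 1.5-fold in either direction among 2, 3 and 2 counted members. There 4.37%, 4.67% and 6.11% of all genes were lower and 8.57%, 8.42% and 6.56% higher.

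The members were also found in the same mesothelial-like cells. At least 2 of the 7 chemokine and cytokine members were counted in 45 of 136 cells of DOX plus AMH (33.1%) and 11 of 90 cells of DOX (12.2%), and at least 3 in 26 and 7 cells. Of the 32 cells of DOX plus AMH with Cxcl2, 23 also had Cxcl1 and 13 had Cxcl5. In stromal-like cells at least 2 members were counted in 38 of 3675 cells of DOX plus AMH (1.03%) and 125 of 4904 cells of DOX (2.55%). Cxcl1 with Il6 was the commonest pair there, in 29 and 88 cells. In macrophage or monocyte-like cells the shares with at least 2 members were 18.3% and 18.2%, and 20 and 13 cells had Cxcl2 with Il1b. These shares were not thinned, and the median depths were 18685.5 and 17982.5 UMIs in mesothelial-like cells and 10161 and 14802.5 UMIs in stromal-like cells.

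Other genes of the pathway were read from fixed lists. Of all genes 8.90% were higher and 16.0% lower in mesothelial-like cells. There 12 of 20 counted other NF-kB target genes were higher in DOX plus AMH and 1 lower, with a median log2 ratio of 1.08. Some of them, picked after their values were seen, were Ccl2, which attracts monocytes, at 599 and 171 CPM (1.81, 1.65 to 1.97), and Ptgs2, the inducible cyclooxygenase, at 131 and 31.9 CPM (2.04, 1.68 to 2.41). Saa3, an acute phase gene, had 559 and 126 CPM (2.15, 1.97 to 2.33). Of the NF-kB subunits, 1 of 5 was higher there, Rela at 49.6 and 29.3 CPM (0.76, 0.34 to 1.18). Of the receptors for the cytokines among the members, 2 of 8 were lower (Il1r1 and Il1rap), beside 16.0% of all genes, and 0 higher. IKK and upstream genes had 3 of 13 higher and 2 lower there, and other IkB and feedback genes 1 of 14 higher and 0 lower. The IL-6 family and STAT3 list had 2 of 7 higher and 0 lower. In stromal-like cells 5 of 25 other targets were lower and 5 higher (median -0.13), beside 4.79% and 11.3% of all genes. Ccl2 at 15.2 and 49.5 CPM (-1.71, -1.83 to -1.58) and Cd83 at 23.1 and 6.35 CPM (1.86, 1.70 to 2.03) were among the ends of the list. Csf3, which drives neutrophil production, had 0.992 and 0.263 CPM (1.92, 1.11 to 2.77), and Sele, an endothelial adhesion gene, 0.149 and 0.670 CPM (-2.17, -3.68 to -0.95). None of 5 NF-kB subunits, 13 IKK and upstream genes, 15 other IkB and feedback genes, 9 receptors and 9 genes of the IL-6 family and STAT3 was past 1.5-fold there. The highest and lowest log2 ratios in these lists were 0.25 for Nfkb2 and 0.23 for Rela against -0.01 for Rel and 0.06 for Relb, and 0.36 for Ikbkb and 0.27 for Tlr2 against -0.10 for Ripk1 and -0.09 for Myd88. Ier3 (0.45) and Zfp36l1 (0.23) stood against Zfp36l2 (-0.26) and Nfkbie (-0.25), Lifr (0.41) and Il6ra (0.27) against Tnfrsf1a (-0.23) and Osmr (-0.10), and Pim1 (0.34) and Clcf1 (0.33) against Il11 (-0.24) and Socs3 (-0.19). Pf4 was at -0.03 and the chemokine-binding receptor Ackr1 at -0.40. In macrophage or monocyte-like cells 6 of 19 other targets were lower and 4 higher, beside 8.38% and 13.6% of all genes. Ccl2 had 620 and 1952 CPM (-1.65, -1.74 to -1.57) and Saa3 825 and 7.18 CPM (6.84, 6.18 to 7.60), both picked after their values were seen.

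Other readings also differed between the libraries, in mesothelial-like cells and in other classes. Of 15 counted AP-1 and immediate-early genes, a list that dissociating a tissue can also switch on, 12 were higher in mesothelial-like cells of DOX plus AMH and 0 lower (median 0.97). The same list had 2 of 16 higher and 2 lower in stromal-like cells (median 0.19), with Jun (0.62) and Fosb (0.61) highest and Fosl2 (-0.72) and Egr2 (-0.68) lowest, and 6 of 14 higher and 2 lower in macrophage or monocyte-like cells (median 0.36). Epithelial-like cells had 7 of 14 higher and 1 lower (median 0.59), and vascular endothelial-like cells 4 of 14 higher and 0 lower (median 0.47). Smooth muscle-like cells had 3 of 13 and lymphatic endothelial-like cells 1 of 11 higher, and 0 lower. Pericyte-like (13 counted), dendritic-like (12) and lymphocyte-like cells (10) had 0 higher, with 1 lower in dendritic-like cells. Of all genes 8.90%, 11.3%, 13.6%, 6.56% and 7.13% were higher in mesothelial-like, stromal-like, macrophage or monocyte-like, epithelial-like and vascular endothelial-like cells. Glucocorticoid-induced genes were higher in 6 of 11, 7 of 12 and 8 of 11 cases in mesothelial-like, stromal-like and macrophage or monocyte-like cells, and lower in none. They were also higher in 6 of 12 cases in smooth muscle-like and 6 of 11 in epithelial-like cells, and lower in none. Of all genes 8.57% were higher in smooth muscle-like cells. The glucocorticoid list shares Dusp1 with the AP-1 list and Cebpd with the other NF-kB targets, so these readings are not separate. In stromal-like cells Sult1a1 (1.59) and Per1 (1.06) were highest and Cebpd (-0.13) and Klf9 (0.36) lowest. Markers of macrophages or monocytes summed to 59.0 CPM in mesothelial-like cells of DOX plus AMH and 265 CPM in those of DOX, and Il1b was at 0 in both. Pf4, a platelet and macrophage chemokine, was at 1.78 and 28.5 CPM there. The part of these in the results was not tested.

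Over the whole libraries, Cxcl2 and Cxcl5 were higher in DOX plus AMH, with log2 ratios of 1.43 (1.31 to 1.56) and 1.93 (1.68 to 2.18), and Il6 and Lif lower, with log2 ratios of -0.81 (-0.94 to -0.68) and -0.74 (-1.04 to -0.44). Without the neutrophil-like cluster the ratio of Cxcl2 was 1.25. That is 2 of 10 members higher and 2 lower, beside 16.5% and 4.04% of all 18839 genes. The sources differed. Of the Cxcl2 UMIs, 40.7% in DOX plus AMH and 0.360% in DOX came from mesothelial-like cells, and 28.6% and 43.0% from macrophage or monocyte-like cells. Of the Cxcl1 UMIs, 42.9% and 6.62% came from mesothelial-like and 44.0% and 80.0% from stromal-like cells. Of the Cxcl5 UMIs of DOX plus AMH, 60.6% came from a squamous keratin-like class with 482 and 7 cells, too few in DOX to compare.

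Likeness was read over 25 clusters of at least 50 cells, both libraries summed, as Pearson's r of log2(CPM + 1) among 12261 genes, and is a description without a test since the clusters share libraries. For Cxcl1 the 5 genes most alike were Vcam1 (0.84), Emc7, C4b, Col6a5 and Apol9a (0.79). For Il6 they were Patl2 (0.83), Irf1, Setdb2, Map3k8 and Tnfaip3 (0.81). For Il1b they were Slamf9 (0.96), F630028O10Rik, Pilra, I830077J02Rik and Gm42962 (0.96). For Nfkbiz they were Junb (0.93), Ccnl1, Sbno2, Ifrd1 and Nfkbia (0.91). Between members, Cxcl1 and Il6 had an r of 0.71, Cxcl1 and Cxcl2 0.43, and Cxcl1 and Il1b -0.04.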

How the data were processed

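Per the labels' protocols, pooled uteri were dissociated with papain and collagenase A at 37°C and made into droplet 3′ libraries, and per the submitters' processing notes the reads were processed with Cell Ranger 7.0.0 on mm10. The authors deposited 1 matrix per library of raw UMI counts, genes by barcodes, already restricted to barcodes with at least 500 UMIs. Whether intronic reads were counted is not given in the sources used here. Genes that overlap were taken as deposited.

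Barcodes were kept from 1000 UMIs and 500 genes upward, where mitochondrial UMIs made up no more than 15%. Doublets were scored by Scrublet in scanpy 1.11.5. Its own threshold called 0 cells in DOX plus AMH and 396 in DOX, so 1 common score of 0.2 was set after the data were seen, which removed 327 and 352 cells. Both libraries were clustered together by the Leiden method (resolution 1, 2000 variable genes, 30 principal components, 15 neighbours). Clusters were named from fixed markers with a scoring rule set after the data were seen, and 3 of 28 stayed unnamed. A class was compared where each library gave it 50 or more cells. UMI counts were summed per library and class. Intervals are exact (Poisson for levels, Clopper-Pearson for shares, binomial split for ratios). The ratio calculation was run on simulated Poisson counts, which lack the concentration of UMIs in few cells seen here. That run checks the calculation and cannot show how well the intervals cover these data. A gene at 0 in 1 library is set against a floor of 3 counts. TMM factors came from edgeR 4.0.16. The alternatives were other cell filters, doublets kept, other clusterings, a marker gate, TMM scaling, other thresholds for a call, and leaving out the highest cell or single clusters.

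All 10 members are named in each class with at least 20 UMIs of them, and pathway genes by rank within fixed lists in stromal-like cells. The members, lists and markers were chosen with earlier results of these data known. Promoters came from the RefSeq table and positions from the GENCODE annotation, both on GRCm38.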

Additional observations from a re-analysis of the deposited data

Results flagged for a closer look

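Il6 had opposite log2 ratios in different classes: -0.94 in stromal-like cells, against 1.76 in mesothelial-like and 3.02 in macrophage or monocyte-like cells. Cxcl2 was at -3.18 in lymphocyte-like cells and at 7.32 in mesothelial-like and 1.71 in lymphatic endothelial-like cells. Cxcl1 was at -2.42 in vascular endothelial-like and 2.02 in mesothelial-like cells. With 1 library per group these differences between classes were not tested. The vascular endothelial-like value of Cxcl1 rests on 1 DOX cell, and the lymphocyte-like value of Cxcl2 on 5 DOX cells.

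A signal also stood in cells that no comparison used. Squamous keratin-like cells of DOX plus AMH had 22.95 CPM of Cxcl5, from 306 UMIs in 36 of 482 cells, with 124 UMIs in 1 cell. Neutrophil-like cells numbered 12 and 2, and those of DOX plus AMH had 6187.7 CPM of Il1b and 5682.09 CPM of Cxcl2. Over all kept cells the neutrophil markers S100a8 (693 and 68 UMIs) and Cxcr2 (99 and 14 UMIs) were higher in DOX plus AMH, while Ly6g (9 and 40 UMIs) was lower. Camp had 78 and 73 UMIs and Mmp8 14 and 10 UMIs. These sums run over all classes, the 482 and 7 squamous keratin-like cells included. They were not split by class, so they do not count neutrophils.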

How the results depend on the processing

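No paired analysis was possible because each group is 1 library, and for the same reason no replicate could be left out. Of 674 single-gene log2 ratios under the alternatives, 74 changed sign, 16 of them from a reported value past 1.5-fold. Of 120 log2 ratios of summed roles, 12 changed sign, 1 of them from a value past 1.5-fold. The cause of the changes below was not tested. Leaving out the highest cell, cluster 12 or the neutrophil-like cluster was chosen after seeing the data.

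TMM scaling shifted every log2 ratio by -0.19 in stromal-like, -0.13 in smooth muscle-like, -0.11 in macrophage or monocyte-like and 0.16 in mesothelial-like cells. In stromal-like cells summed chemokines (-0.07) were at -0.25 with no cell filter, -0.31 with each library clustered alone, 1.15 with a marker gate, -0.26 with TMM and 0.54 without cluster 12. Summed cytokines (-0.90) were at -0.50 with the gate, -1.09 with TMM and 0.15 without cluster 12. Summed feedback regulators (0.04) were at -0.029, -0.025, 0.46, -0.15 and 0.39 under the same 5 settings as the chemokines. With each library clustered alone, smooth muscle-like chemokines (0.56) were at -1.09 and feedback regulators (0.23) at -0.54, and macrophage or monocyte-like feedback regulators (-0.14) at -0.28. Mesothelial-like feedback regulators (0.50) were at 0.66 with TMM. Macrophage or monocyte-like chemokines (0.39) were at 0.83 with no cell filter and 0.20 with doublets kept, and cytokines (-0.05) at 0.36 and -0.23.

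Single genes reported past 1.5-fold changed sign as follows. In stromal-like cells Cxcl5 was at 1.10 with the gate and 0.75 without cluster 12, Il6 at 0.91 without cluster 12, and Il1b at 0.66 with doublets kept and 0.10 with the gate. Pericyte-like Tnfaip3 was at 0.20 with no cell filter and 0.40 when the members and pathway genes were clustered on. Vascular endothelial-like Cxcl1 was at 1.52 with the stricter filter, 1.59 with each library alone, 2.32 with the gate, 1.76 when clustered on the members and 1.49 without the highest cells, and Il6 there at 0.20, 0.27 and 0.0065 under the stricter filter, libraries alone and clustering on the members. Lymphocyte-like Tnf was at -0.21 with the gate. At a 2-fold threshold the members lower in stromal-like cells numbered 2 and those higher in macrophage or monocyte-like cells 1. At 20 UMIs 1 member was higher in stromal-like cells and 2 lower in macrophage or monocyte-like cells. Nearer 0, stromal-like Nfkbiz was at 0.39 without cluster 12, and pericyte-like Cxcl1 at -0.20 and dendritic-like Tnf at -0.52 without the highest cells. Cxcl5, Il1b and Lif reached 20 UMIs in the fewest classes, 2, 3 and 4 of the 10 compared. The part of depth in this was not tested.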
